A study of Megathyrsus maximus with 33 samples.

Results

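The transcripts described here are the 200 of 39208 leaf transcripts of Guinea grass (Panicum maximum, a tropical C4 forage grass) that fell most between time points A and B while still being expressed at B. They were chosen from the measured values. The value at A was subtracted from the value at B in each of 16 plots, 18605 transcripts with a mean log2 value of at least 1 at B were kept, 586 of these were lower at B in all 16 plots, and the 200 with the most negative mean difference were taken. A log2 value is the reads of a transcript plus 0.5, per 1e6 of a library size scaled by the TMM method, so a difference of 1 is a 2-fold change. The fall itself is therefore the rule and not a finding, and it is given without a test. What the rule did not use, although it read the same libraries, is how the plots of different treatments differed within a time point, and that is tested below.

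The plots received ambient temperature and ambient [CO2] (C), elevated [CO2] of 600 ppm (eC), warming by 2 °C at ambient [CO2] (eT) or both together (eCeT). The [CO2] was raised in the open field by free-air enrichment and the canopy was warmed with infrared heaters. Each treatment had 4 plots, 2 m across, and each plot gave 1 library at A (30 days of treatment) and 1 at B (50 days as labelled, although the dates given for B differ by a month between sources), 32 libraries in all. Each library came from 6 youngest fully expanded leaves that were pooled, so the plot is the replicate. The age of the stand and the season moved with the time point in every plot and cannot be told apart from it. A pool of RNA sequenced only for the assembly was not analysed here.

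Leaves sampled at successive dates in the field differ in the age of the stand, in weather and in light, and leaf transcript pools follow all of these. Heat shock proteins are chaperones that bind unfolding proteins. The small ones, among them the class II proteins of the cytosol, hold such proteins in a state from which larger chaperones of the HSP70 and HSP101 kinds can refold them. Their transcripts are well known to be induced when leaves warm. Aspartyl proteases are protein-cleaving enzymes with an aspartate pair in the active site, and plants hold many of them.

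Few of the 200 carried a name, and sequences were not used here. Names were sought in 2 of the study's lists. These hold transcripts that differed in eCeT at A, grouped by co-expression, and transcripts that correlated with metabolites at B. The study's full list of transcripts that differed in eCeT at either time point was not used for names. The lists used hold 165 identifiers. Of these, 100 had an Arabidopsis match with an e-value of 1e-05 or less, and 2 of the 200 falling transcripts were among them. c85117_g1 matched At5g12020, a small heat shock protein of class II, and c87028_g2 matched At5g10770, of the eukaryotic aspartyl protease family. The other 198 are known only by their identifiers in the assembly, so nothing can be said of what most of the 200 encode. Of the 200, 13 shared a component of the assembly with another of the 200, in 6 components with at most 3 each. Such transcripts can be parts or near copies of 1 gene, and reads may be split between them.

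The libraries held between 6148491 and 15638548 reads, with a median of 10854153 at A and 11976829 at B. The 10 largest transcripts took a median of 19.2% of the reads at A (10.4 to 41.5%) and 30.0% at B (11.4 to 53.9%), so the make-up of the libraries moved with the time point. The TMM scaling is meant to offset this, and the part of this shift in the falls was not tested. Of the 4 photosynthetic matches in the study's lists, c82081_g1, of a light harvesting protein of photosystem I, had the highest means. Its mean log2 value was 4.14 at A and 4.91 at B. The match c87432_g1 was low, at −1.13 and −0.03, and the plastocyanin match c66714_g1 fell, with a difference of −0.94. At A c82081_g1 was also lower in the warmed plots (eT and eCeT) than in the others, by 1.62. The plastocyanin match c66714_g1 was higher there, by 2.22 (both limma, adjusted p under 0.1). Of the 4, 2 were called lower and 1 higher, where 2.32% and 1.44% of all transcripts were.

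The falls ranged from 1.81-fold to 10.9-fold. The mean difference was −3.44 in the transcript that fell most, −1.17 in the median of the 200 and −0.86 in the last, against a median of 0.05 over all transcripts and −0.03 over the 18605. At least a 2-fold fall was seen in 145 and at least a 4-fold fall in 18. In pooled leaves, fewer cells of a type and less RNA per cell cannot be told apart. Together the 200 took between 2.82 and 7.82% of the reads of a library at A (median 5.10%, n = 16) and between 1.30 and 3.83% at B (median 2.08%), so the ranges overlapped. Counts were ample for nearly all of them, with at least 10 reads in every library for 192 and none at 0 in any library.

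**Figure D1:**
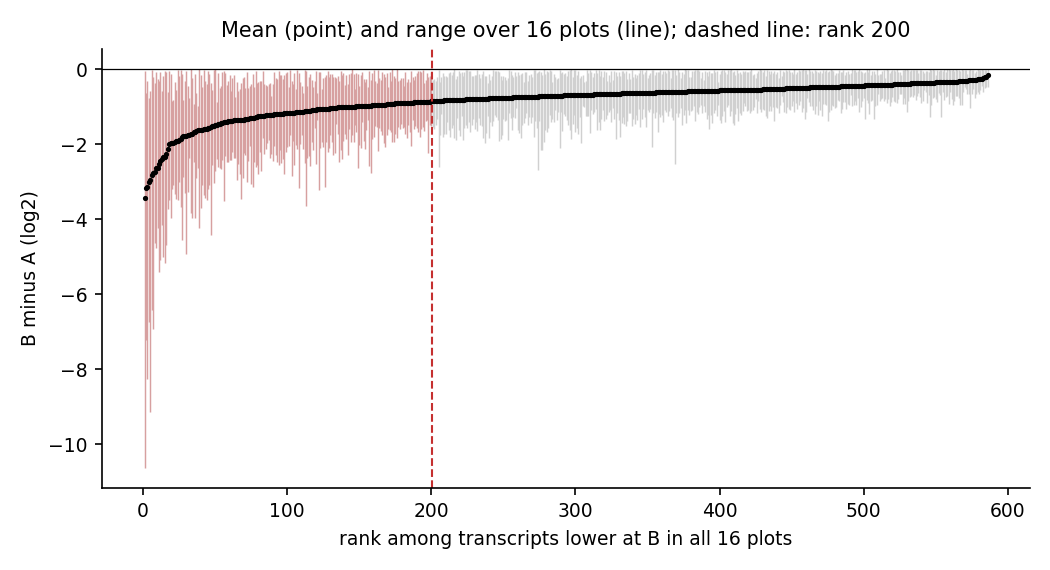
Difference between time points (B minus A, log2; y axis) of the 586 transcripts that were lower at B in all 16 plots, ranked by their mean (x axis). Points are means and vertical lines the range over the 16 plots. The dashed line marks rank 200, where the mean is −0.86, and the curve passes it without a step.

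The limit at rank 200 is not a natural one. The last transcript inside, c79192_g1, had a mean log2 value of 5.89 at A and 5.03 at B (difference −0.86, SD 0.41 over 16 plots). The first outside, c72001_g1, had 9.31 at A and 8.46 at B (difference −0.85, SD 0.42). The demand for a fall in all 16 plots left out far more. Of the 18605, 635 had a mean difference as negative as that of c79192_g1 and 435 of these were not lower in every plot, 241 of them missing it in 1 plot alone. For 114 of those 241 that plot was C replicate 1, for 40 it was eC replicate 4, and no other plot accounted for more than 16. Without C replicate 1 the rule picked 111 of the same 200, and without any other plot it kept between 162 and 197.

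The transcripts fell in every treatment, by amounts that varied more between the plots of C than between the means of the treatments. In C the mean fall of the 200 was −1.26 ± 0.42 (SD, n = 4 plots), in eC −1.40 ± 0.28, in eT −1.56 ± 0.08 and in eCeT −1.14 ± 0.35. Over single plots it ran from −0.82 in eCeT replicate 2 to −1.75 in C replicate 4. The plots of eT lay closest together, between −1.48 and −1.66. Of the 200, 97 had their largest mean fall in eT, 53 in eC, 37 in C and 13 in eCeT. A change of the effect of warming or [CO2] between time points is a contrast of the same 16 differences that the rule read, and a fall in all 16 favours even falls, so it is given no test here.

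**Figure D2:**
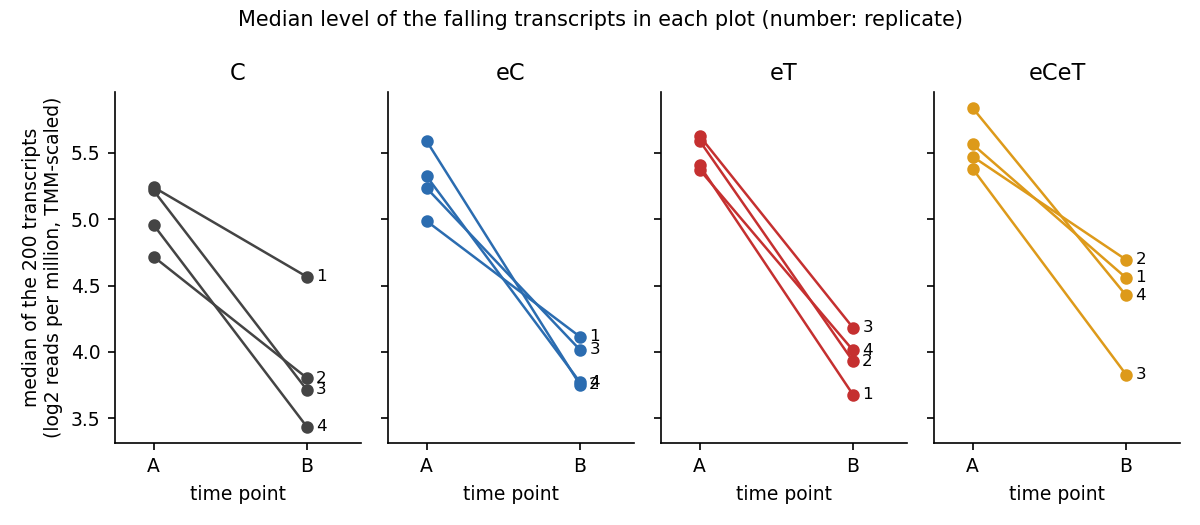
Median log2 value of the 200 falling transcripts (y axis) in each plot at time points A and B, by treatment. Each line is 1 plot with its replicate number. At A the medians lie between 4.72 and 5.84 and at B between 3.44 and 4.69, and the lines of eCeT replicates 1 and 2 and C replicate 1 end highest.

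The transcript that fell most, c79816_g1, was also the least even, and both places rest on eC replicate 4. Over the 16 libraries of A its log2 value was between 3.68 and 7.64 (median 5.53), and at B between −2.99 and 5.49 (median 1.86). At B it was high in C replicate 1 (5.49), eCeT replicate 2 (5.01) and eCeT replicate 1 (4.30) and low in eC replicate 4 (−2.99), which had 1 read, so the groups overlapped. Its difference ran from −0.05 in C replicate 1 to −10.6 in eC replicate 4, the latter resting on the 0.5 added to the read count, with an SD of 2.55, the largest of the 200. Without eC replicate 4 its mean was −2.96 and its SD 1.74, and c88972_g3, at rank 2 with all plots, then led the 200 in both, with a mean of −3.32 and an SD of 1.90. Neither carries an annotation.

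The transcript whose residuals from the group means ran closest to it over the 32 libraries was c88648_g1, at rank 3, with a correlation of 0.96. This is a description over libraries that both share. c88648_g1 had log2 values between 4.51 and 8.64 at A (median 6.53) and between 0.38 and 6.37 at B (median 3.24). Its highest value at A and lowest at B were both in eC replicate 4, and its highest at B was in C replicate 1. The residuals of the 200 tended to move together in general. Over their 19900 pairs the median correlation was 0.19 (quartiles −0.04 and 0.41), against 0.007 for pairs of the 18605. The counts of the 200 given below are therefore not counts of independent transcripts.

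The most even was c70377_g2, whose 16 differences had an SD of 0.20. It was between 4.68 and 5.54 at A (median 5.09) and between 3.71 and 4.23 at B (median 4.00), and every library of A lay above every library of B. This held for 7 of the 200, and for 13 of the 18605 (0.0699%), but the rule read this difference and nothing is read from the count. Its mean difference was −1.08, or 2.11-fold. The median SD of the 200 was 0.58, against 0.42 for the 18605.

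The reads of the 200 were concentrated in few transcripts, the 10 largest holding 53.1% of them at A. c93512_g2 alone took 0.784% of all reads at A and 0.427% at B. Its log2 value was between 12.10 and 13.36 at A (median 12.98) and between 11.69 and 12.83 at B (median 11.93), so the ranges overlapped. It fell by 0.87 on average, from −0.03 in C replicate 3 to −1.53 in eT replicate 4. c74427_g2 took 0.382% at A and 0.173% at B. It was between 10.47 and 12.61 at A (median 11.84) and between 9.14 and 11.47 at B (median 10.70), lowest at B in C replicate 4. These shares are not per length. The length of a transcript, relative to the median transcript, can be read from the ratio of reads to FPKM, and for the 200 its median was 0.87 (quartiles 0.59 and 1.21), against 1.02 (0.66 and 1.49) for 17941 of the 18605.

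The heat shock protein c85117_g1 is the member whose role is best known. It carries a name only through the study's lists, which were picked on these samples. Its comparisons of eCeT with C below are therefore not independent of that choice. At A its log2 values in C were 5.24, 4.08, 3.34 and 3.86 in replicates 1 to 4, in eC 5.56, 5.12, 4.59 and 6.12, in eT 4.01, 5.19, 5.34 and 5.95, and in eCeT 5.53, 5.71, 7.44 and 5.51. At B they were 5.18, 3.54, 2.85 and 2.22 in C, 3.51, 3.31, 3.67 and 4.91 in eC, 2.89, 3.22, 4.35 and 3.97 in eT, and 5.08, 5.45, 4.94 and 5.48 in eCeT. At A all eCeT plots lay above all C plots, and at B C replicate 1 lay within the range of eCeT. Its fall was −1.13 on average (SD 0.79), and smallest in eCeT replicate 4 (−0.02) and C replicate 1 (−0.07). At A it was higher in eCeT than in C by 1.92 (SE 0.51; limma, adjusted p = 0.079). Leaving out C replicate 2, 3 or 4 or eCeT replicate 1, 2 or 3 ended this call, with adjusted p up to 0.25 and a difference of 1.45 without eCeT replicate 3. At B the difference was 1.79 (SE 0.51; adjusted p = 0.16), which did not pass.

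Other transcripts of the heat shock and folding machinery fell beside it without meeting the rule. The study's lists match 8 transcripts to this machinery, with a median difference of −1.59. The 7 that the rule did not choose were all called lower at B (limma, adjusted p under 0.1), as were 46 of the 100 transcripts of the lists with a match and 19.9% of all transcripts. The lists were picked by the study on these samples, for a response to eCeT at A or for a correlation with metabolites at B. They are therefore not independent evidence of a direction. c78721_g1, a match of the chloroplast small heat shock protein HSP21, fell by 2.27 (SD 1.58 over 16 plots), and c69462_g3, a match of the chaperone HSP90.1, fell by 2.21 (SD 2.68). c75211_g1 matches MBF1C, a transcriptional coactivator of the heat response, and fell by 1.92 (SD 1.42). c88586_g2 matches the disaggregating chaperone HSP101 and fell by 1.42 (SD 1.13), while the DnaJ co-chaperone match c88026_g1 fell by 0.55 (SD 0.38). The 7 that are not among the 200 were lower at B in 13 to 15 of 16 plots. The plots in which they were not lower were C replicate 1 or 2, eC replicate 4, eT replicate 4 and eCeT replicate 4.

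**Figure D3:**
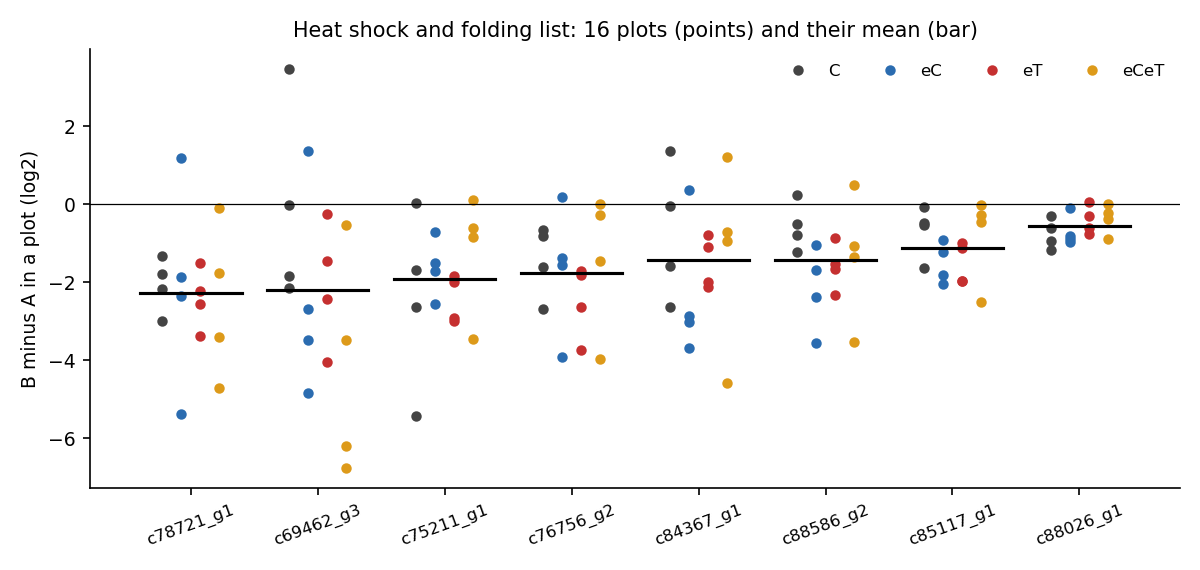
Difference between time points (B minus A, log2; y axis) in each of 16 plots for the 8 transcripts matched to heat shock and folding proteins (x axis), coloured by treatment, with the mean as a bar. The means run from −2.27 in c78721_g1 to −0.55 in c88026_g1, and c85117_g1 alone has all 16 points below 0.

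The other groups of matches, formed here from words of the descriptions, held no member of the 200. The aspartyl protease match c87028_g2 is in none of these groups. Among 9 matches of pathogenesis-related proteins and cell wall hydrolases, enzymes and defence proteins of the cell wall, all 9 were called lower at B, with a median difference of −1.16. One of them, c83775_g1, a match of a β-1,3-glucanase that cleaves callose and fungal walls, was lower in all 16 plots, by 1.87 on average, and missed the rule only because its mean at B was 0.89. Of 10 kinase matches 5 were called higher and none lower (median 0.60), and of 4 photosynthetic matches 3 were called higher and 1 lower (median 0.94). Of 6 cytochrome P450 matches 3 were called lower (median −0.68), of 2 terpenoid matches 1 was called lower (median −0.78), and of 3 flowering matches 1 was called higher (median 0.20). Higher calls at B came to 23.3% of all transcripts.

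Within time point A the 200 tended to be higher in the warmed plots (eT and eCeT) than in the others (C and eC). Of the 200, 14 were called higher and none lower (limma, adjusted p under 0.1), where 1.44% of all transcripts and 1.89% of the 18605 were called higher and 2.32% and 3.75% lower. At an unadjusted p under 0.05, 81 (40.5%) were higher and 0 lower, against 15.6% of all transcripts in either direction, and voom also called 14. The shares of all transcripts at an unadjusted p, here and below, include transcripts under the level that the rule asked for. Such shares were not taken over the 18605. The median difference of the 200 was 0.35 (quartiles 0.14 and 0.52) and 181 lay above 0, against a median of 0.02 over all transcripts and 52.2% above 0 among the 18605. The differences of the 14 ran from 0.46 to 1.86, 2 of them at least 2-fold. The median read count of the warmed libraries was 11404678 and that of the others 10615315. The 10 largest transcripts took a median of 18.3% and 19.2% of their reads.

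The number called rested on single plots. The shares of all transcripts called in such fits are not given, here or below. The counts therefore do not show whether calls moved in the 200 or in all transcripts. It was 34 without eT replicate 1 and 23 without C replicate 1. It was 9 without eC replicate 3 or eC replicate 4, and 7 without C replicate 3, eT replicate 4 or eCeT replicate 4. Omitting eCeT replicate 1 left 4 calls, omitting eT replicate 3 left 3, and omitting C replicate 2 left 2. The median of the 200 stayed between 0.29 and 0.37 over all 16 such fits.

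**Figure D4:**
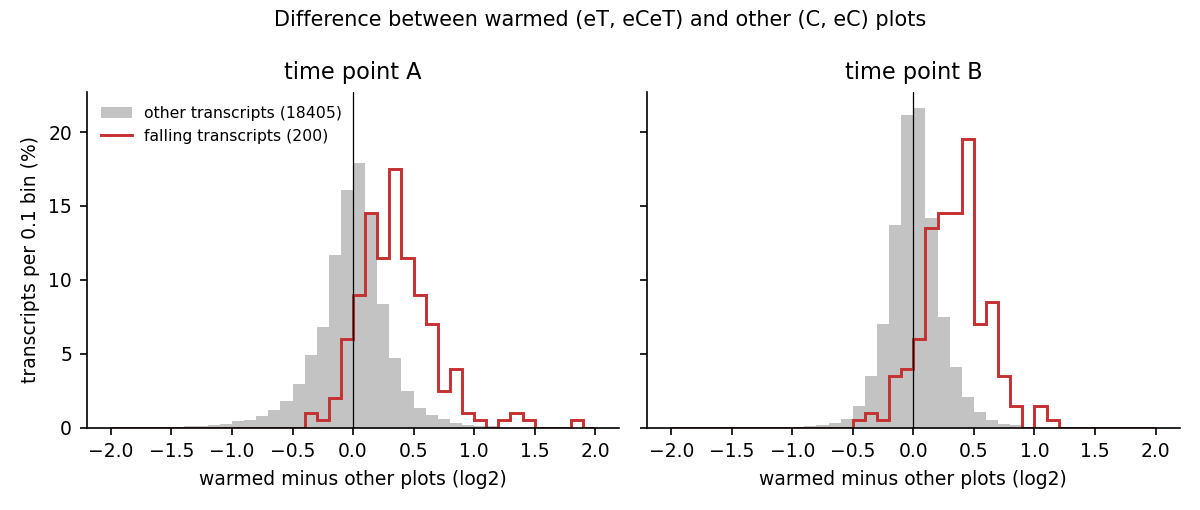
Distribution of the difference between warmed (eT, eCeT) and other (C, eC) plots (x axis, log2) at time point A (left) and B (right), for the 200 falling transcripts (red line) and the other 18405 transcripts with a mean log2 value of at least 1 at B (grey). The y axis is the share of each set per bin of 0.1, and the 200 are centred at 0.35 at A and 0.36 at B.

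c79544_g2 had the smallest p for warming at A. Its log2 value was between 4.54 and 5.13 in the 8 warmed plots (median 4.73) and between 3.81 and 4.61 in the 8 others (median 4.38), so the sets overlapped narrowly. The difference was 0.53 (SE 0.14; limma, adjusted p = 0.042), and the call held without any 1 plot (adjusted p up to 0.093). At B it was between 3.35 and 4.58 in the warmed plots (median 3.91) and between 2.77 and 3.60 in the others (median 3.26). It carries no annotation.

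c83883_g2 came next and had the wider response to eCeT. In the warmed plots of A it was between 6.93 and 8.72 (median 7.57), and in the others between 6.16 and 7.92 (median 6.98). The difference was 0.81 (SE 0.21; limma, adjusted p = 0.044), and this call too held without any 1 plot (adjusted p up to 0.094). By treatment its mean at A was 6.52 in C, 7.24 in eC, 7.30 in eT and 8.08 in eCeT, so eC and eT lay close together. In eCeT at A it was 8.01, 7.66, 8.72 and 7.92 in replicates 1 to 4 and in C 7.25, 6.41, 6.16 and 6.25, so eCeT lay above C throughout. That difference was 1.56 (SE 0.30; adjusted p = 0.023), a call lost without C replicate 2 alone (adjusted p = 0.14). In eCeT at B it was 7.12, 7.22, 6.18 and 7.41 and in C 6.37, 5.60, 5.54 and 5.08, with eCeT replicate 3 below C replicate 1. The difference at B was 1.33 (SE 0.30; adjusted p = 0.074), lost without C replicate 3 or 4, eC replicate 3 or eCeT replicate 1, 2 or 4 (adjusted p up to 0.28).

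The transcript at rank 2, c88972_g3, had the largest warming difference of the 14. At A it was between 3.70 and 6.60 in the warmed plots (median 5.79) and between 1.11 and 4.98 in the others (median 3.82), lowest in eC replicate 4. The difference was 1.86 (SE 0.53; limma, adjusted p = 0.062). At B the sets lay together, between −0.66 and 3.43 in the warmed plots (median 1.57) and between 0.01 and 3.41 in the others (median 1.15). The call at A ended on omitting C replicate 2 or 3, eC replicate 4, eT replicate 3 or 4 or eCeT replicate 3 or 4, with adjusted p up to 0.14.

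At time point B the median difference between warmed and other plots was much the same, 0.36 (quartiles 0.18 and 0.48), with 181 of the 200 above 0, against a median of 0.004 over all transcripts. Over both time points 169 lay above 0 at each. The rule read the differences between time points and favours even falls, so this likeness is partly built in and nothing is read from it. Few passed the test at B. 2 were called higher and none lower (limma; 0.0459% of all transcripts were called higher and 0% lower), and voom called 0. At an unadjusted p under 0.05, 76 (38.0%) were higher and 0 lower, against 7.46% of all transcripts in either direction. c90573_g4 was between 5.25 and 6.81 in the warmed plots (median 5.997) and between 4.69 and 5.63 in the others (median 5.22), a difference of 0.81 (SE 0.16; adjusted p = 0.078). c86480_g1 was between 2.04 and 3.51 in the warmed plots (median 2.99) and between 0.97 and 2.41 in the others (median 1.83), a difference of 1.12 (SE 0.23; adjusted p = 0.087). Both calls were lost without C replicate 3 or 4, eC replicate 1, 2 or 3, eT replicate 2, 3 or 4 or eCeT replicate 2 or 4, and that of c86480_g1 also without eCeT replicate 1, with adjusted p up to 0.30 for c90573_g4 and 0.31 for c86480_g1. The count of 2 became 24 without eCeT replicate 3, 10 without eC replicate 4, 5 without C replicate 2 or eT replicate 1, 4 without C replicate 1 and 1 without eCeT replicate 1. It became 0 without any 1 of the other 10 plots, while the median stayed between 0.30 and 0.42.

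**Figure D5:**
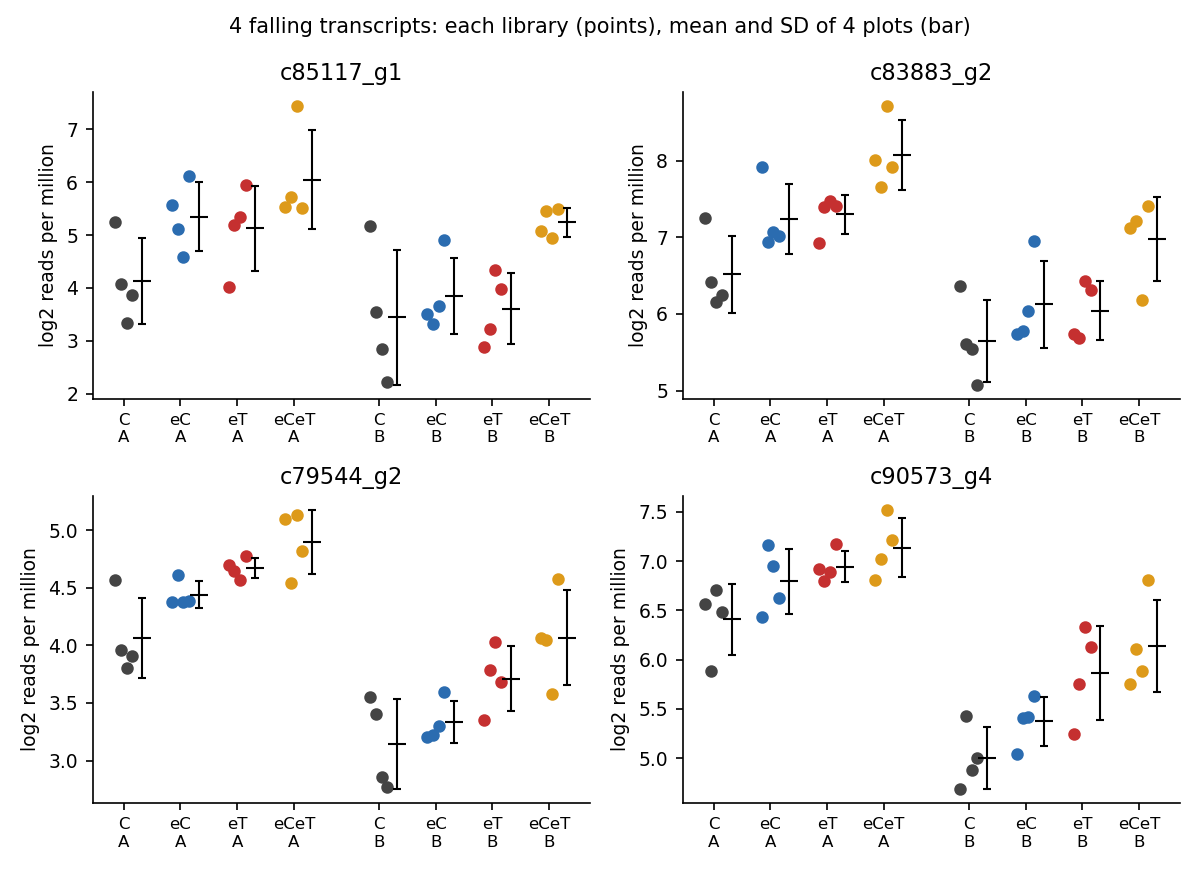
Log2 values (y axis) of c85117_g1, c83883_g2, c79544_g2 and c90573_g4 in each library, by treatment and time point (x axis). Points are single plots and bars the mean and SD of 4 plots. In all 4 transcripts eCeT has the highest mean and C the lowest at either time point.

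The combined treatment was also compared with C alone. At A 10 of the 200 were called higher in eCeT and none lower (limma; 0.436% of all transcripts were called higher and 0.964% lower; voom 12). At an unadjusted p under 0.05, 56 (28.0%) were higher and 0 lower, against 12.5% of all transcripts in either direction. The median difference was 0.42, with 182 above 0. At B 9 were called higher and none lower (0.265% and 0.0434% of all transcripts; voom 9). An unadjusted p under 0.05 was reached by 91 (45.5%), all higher, against 10.3% of all transcripts. There the median was 0.56, with 187 above 0. These comparisons share their plots with those of warming and are no second line of evidence for them. Called at both time points were 5 transcripts, of the 10 at A and the 9 at B. Over all transcripts 26 were called higher at both, of 171 at A and 104 at B. The 5 were c79544_g2, c83883_g2 and c87028_g2, and also c70184_g1 and c86255_g1, which were named after their values were seen.

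The counts for eCeT were as sensitive to single plots. At A the 10 became 6 without eT replicate 2, 5 without eCeT replicate 3, 4 without eCeT replicate 2, and 3 without C replicate 3 or eCeT replicate 4. They became 2 without C replicate 4, 1 without eCeT replicate 1 and 0 without C replicate 2. At B the 9 became 41 without eCeT replicate 3, 26 without C replicate 1 and 5 without eC replicate 3, and 0 without C replicate 3 or 4 or eCeT replicate 1, 2 or 4. In the plot of medians by plot, eCeT replicate 3 is the lowest of eCeT at B and C replicate 1 the highest of C. The median of the 200 stayed between 0.34 and 0.49 at A and between 0.46 and 0.73 at B.

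The aspartyl protease match c87028_g2 was 9.25, 9.03, 9.03 and 9.23 in C and 10.13, 9.67, 9.61 and 10.66 in eCeT at A, where every eCeT plot lay above every C plot. It was higher by 0.88 (SE 0.25; limma, adjusted p = 0.097). At B it was 7.94, 8.08, 8.13 and 7.60 in C and 9.54, 9.28, 8.18 and 8.89 in eCeT, again without overlap, and higher by 1.03 (SE 0.25; adjusted p = 0.092). Both calls sat at the threshold. Like c85117_g1, it carries a name only through the study's lists from these samples, so these calls are not independent of that choice. The call at A was lost without any 1 of 12 plots, namely all 4 of C, eC replicates 1 and 3, eT replicates 1, 2 and 4 and eCeT replicates 1, 2 and 4, with adjusted p up to 0.28. It was also lost with quantile normalization, median centring, no variance trend or the 16 libraries of A alone (adjusted p up to 0.16). The call at B was lost without C replicate 3 or 4, eC replicate 1 or 3, eT replicate 1, 2 or 4 or eCeT replicate 1, 2 or 4, with adjusted p up to 0.36, and with no variance trend or the 16 libraries of B alone (adjusted p up to 0.17). Its fall over time was −1.22 (SD 0.49).

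At B the smallest p for eCeT against C were those of c90573_g4 and c82301_g1. c90573_g4 was 5.75, 6.11, 5.89 and 6.81 in eCeT and 4.69, 5.43, 4.88 and 5.01 in C, with no overlap, a difference of 1.14 (SE 0.23; limma, adjusted p = 0.035). c82301_g1 was 5.08, 5.24, 5.08 and 5.49 in eCeT and 4.46, 4.40, 4.10 and 4.53 in C, again apart, a difference of 0.85 (SE 0.17; adjusted p = 0.040). Both calls ended on omitting C replicate 3 or 4 or eCeT replicate 1, 2 or 4, with adjusted p up to 0.21 for c90573_g4 and 0.22 for c82301_g1. c79544_g2 was called in eCeT at both time points. It was higher by 0.84 at A (SE 0.20; adjusted p = 0.046), a call that ended on omitting C replicate 2, 3 or 4 or eCeT replicate 1 or 3 (adjusted p up to 0.21). It was also higher by 0.92 at B (SE 0.20; adjusted p = 0.049), a call that ended on omitting C replicate 3 or 4 or eCeT replicate 1, 2 or 4 (adjusted p up to 0.25).

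Warming or [CO2] alone gave no calls among the 200. In eT against C at A none was called (limma; 0.0051% of all transcripts were called higher and 0.0434% lower; voom 0), although 63 (31.5%) were higher at an unadjusted p under 0.05, against 10.3% of all transcripts in either direction, 188 lay above 0 and the median was 0.46. Without eT replicate 1, 1 was called. In eT against C at B none was called (0.0179% and 0% of all transcripts; voom 0), where the median was 0.24 and an unadjusted p under 0.05 was reached by 35 that were higher and 2 that were lower (18.5%, against 7.26% of all transcripts). Without eC replicate 4, 1 was called. In eC against C none was called at A (limma; 0% of all transcripts in either direction; voom 0), where the median was 0.18 and 22 (11%, against 7.90% of all transcripts) reached an unadjusted p under 0.05. None was called at B either (0% of all transcripts; voom 0), where the median was 0.09 and 14 (7.0%, close to the 6.51% of all transcripts) reached an unadjusted p under 0.05. Over both temperatures, elevated [CO2] gave none at A (0% of all transcripts; voom 0). There 19 (9.5%, against 7.56% of all transcripts) reached an unadjusted p under 0.05, and the median was 0.06. At B it gave none either (0.00255% of all transcripts higher and 0.00255% lower; voom 0), with 27 at an unadjusted p under 0.05 (13.5%, against 6.04% of all transcripts), a median of 0.22 and 169 above 0. That eCeT gave calls and eT or eC gave none does not show that their effects differ, since the differences between them were not tested.

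The 200 transcripts that rose most had all 16 differences above 0 and, like those that fell, a mean of at least 1 at B. This does not mirror the rule, since a risen transcript reached that mean where it was high and could be low at A. In warming and in eCeT against C the risen transcripts had medians of the other sign. For warming at A 12 of them were called lower and none higher, with a median of −0.10 and 72 above 0. Of all transcripts 2.32% were called lower there, and 3.75% of the 18605. At B none was called, with a median of −0.17 and 33 above 0. For eCeT against C at A 5 were called lower and 1 higher, against 0.964% and 0.436% of all transcripts. At B 1 was called lower and none higher, against 0.0434% and 0.265%, with a median of −0.45 and 16 above 0. These sets were picked on the same libraries, and the difference between them was not tested.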

How the data were processed

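Leaf RNA was sequenced as paired reads on a HiSeq2500 and assembled with Trinity; per the labels, reads were handled with CASAVA and bcl2fastq 1.8.4, and the aligner and counter are not given in the sources used here. The authors kept transcripts with at least 10 reads over the 4 replicates of a treatment. They deposited log2 values of 39208 transcripts, made as reads plus 0.5 per 1e6 of a TMM-scaled library size, after removing what they describe as extreme outliers. They also deposited FPKM of 45073 transcripts, in 32 columns. Of these 29 could be used, and 3 columns of the control, which the header lines assign to different libraries, were left out. Reads were recovered from the log2 table, since the lowest value of a library is that of 0 reads, and 100% of those up to 1000 lay no more than 0.02 from a whole number.

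Transcripts were tested on the log2 values with limma 3.58.1 (R 4.3.3), with 1 model of 8 groups over 32 libraries, a variance trend, two-sided p and Benjamini-Hochberg adjustment over all 39208 transcripts. The threshold for a call was an adjusted p of 0.1, as in the study. Plots are separate plots of 1 field, so p-values measure the spread between plots. The model was also run on simulated counts, drawn independently for each transcript and library. The transcripts and plots here are not independent in this way, so that run does not vouch for the calls. Other steps were run with pandas 2.3.3 and numpy 2.4.6 in Python 3.11.15, and figures were drawn with matplotlib 3.10.9. The table could have held counts, and a count test was then foreseen; it held log2 values, and the log2 test applied.

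Named transcripts are those with an Arabidopsis match, the 2 that fell most, those at ranks 200 and 201, the 2 with the most reads at A, the 2 with the smallest p in each direction of each contrast with calls, those with the smallest and largest SD, and the nearest in residuals to rank 1. Members of the lists with an Arabidopsis match are also named. The 200 transcripts, the lists and the tests were chosen with earlier results of these data known. Alternatives were a stricter threshold of 0.05, voom on the recovered reads, no variance trend, quantile normalization, median centring, only transcripts reaching 1 CPM on average in some group, the replicate number as a block, random effects of plots, only the 16 libraries of 1 time point, and omission of single plots. For the rule they were the FPKM table (pseudocount 1), a mean of at least 2 at B and 5 reads added. The median of the 200 in warming, in eCeT against C and over time was followed over the alternatives after the data were seen.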

Additional observations from a re-analysis of the deposited data

Results flagged for a closer look

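In groups of 4 plots, a value was singled out when its gap to the nearest of the others took a larger share of the whole range than Dixon's critical value for 4 samples. Of 132 groups examined 6 were singled out, and chance gives about 1 in 20. In eC at time point A, c79544_g2 was 4.61 in replicate 2, c83883_g2 was 7.92 in replicate 1 and c88648_g1 was 8.64 in replicate 4, each above its group. In eT at A, c83883_g2 was 6.93 in replicate 1, below its group. In eCeT at A, replicate 3 was high in c85117_g1, at 7.44, and in c72001_g1, the transcript just outside the 200, at 9.81.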

How the results depend on the processing

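Of the results followed over the alternatives, none changed direction. These were the counts of calls, the medians of the 200 in warming, in eCeT against C and over time, and the named calls. The medians in eC, eT and elevated [CO2] were not followed. None of the 300 counts of calls held a member called lower. Warming at A gave 14 calls, and 4 at an adjusted p under 0.05, 9 with every library centred on its median, 4 with no variance trend and 22 with the 16 libraries of A alone. Warming at B gave 2, and 0 at an adjusted p under 0.05, with no variance trend, with voom or with 16 libraries, 4 with quantile normalization or centring, and 5 with the replicate block. eCeT against C at A gave 10, and 2 at an adjusted p under 0.05, 5 with centring and 3 with no variance trend. At B it gave 9, and 4 at an adjusted p under 0.05, 28 with centring, 0 with no variance trend and 1 with 16 libraries. eT against C at B gave 0, and 1 with quantile normalization or centring. With 1 plot left out, the counts ran from 2 to 34 and 0 to 24 for warming at A and B, 0 to 12 and 0 to 41 for eCeT against C, and 0 to 1 for eT at either time point. The rule kept 111 to 197 of the 200. The causes of these moves were not tested, and the shares of all transcripts called under each alternative are not given beside the counts. Centring moved the median of all transcripts by 0.15 in eCeT against C at B and by 0.11 in eC against C at B. After centring, the 200 had a median of 0.71 there in eCeT, against 0.13 for all transcripts. The medians of the 200 in warming and in eCeT against C stayed positive throughout.

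The rule kept 144 of the 200 with quantile normalization, 163 with centring, 136 with the FPKM table over 14 plots, 168 with a mean of at least 2 at B and 186 with 5 reads added. With the replicate number as a replicate block, calls came to 21 for warming at A, 13 for eCeT at A and 12 for eCeT at B. The labels give this number as the ring, shared by 1 plot of each treatment, and do not say what a ring shares. Over all transcripts, deviations from the group means correlated between plots of a ring by −0.12 to 0.13 at A and −0.08 to 0.22 at B, over 0.1 in 2 and 12 of 24 pairs, so not every pair deviated together. Over the 200 the median was −0.03 at A and 0.39 at B (−0.51 to 0.76, 17 of 24 over 0.1). Depth was lowest for the 8 of the 200 that fell under 10 reads in some library.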
